A study of Mus musculus with 9 samples.

Results

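The genes examined here were 6 genes of neurotrophin signalling, namely the receptors Ntrk2, Ntrk3, Ngfr and Sort1 and the ligands Bdnf and Ntf3. They were picked by name, by matching the Ensembl identifiers of the count files to GENCODE M21, and all 6 were found among 44886 gene rows. RNA had been sequenced from the striatum of 9 mouse embryos at E17.5, with 1 library per embryo and no pooling of embryos described. The study asked what the loss of the transcription factor Ebf1 does to developing striatal projection neurons (SPN), which comprise neurons of the direct pathway (dSPN) and of the indirect pathway (iSPN). Counts on genes totalled 16.5 to 41.5 M per embryo.

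The labels of the 3 Control embryos give neither their Ebf1 alleles nor whether they carried Cre, and the study's methods name heterozygous embryos as its controls. The 3 labelled Islet1Cre;Ebf1fl/- carried a null and a floxed Ebf1 allele with Cre expressed from the Islet1 gene, which in the striatum recombines in dSPN and cholinergic interneurons, and are called Islet1Cre mutants here. The 3 labelled Dlx5/6::Cre;Ebf1fl/- carried the same Ebf1 alleles with Cre driven by Dlx5/6 elements, active in all SPN and striatal interneurons, and are called Dlx5/6::Cre mutants. Since every mother was Ebf1fl/fl, all 9 embryos inherited a floxed allele. The labels give C57BL/6 as the strain, whereas the methods place the Islet1Cre line on another background. The count over the whole Ebf1 gene was not lower in either mutant (log2 fold change 0.41 and 0.33, adjusted p = 0.599 and 0.399 by edgeR), so that count does not check the genotypes. Striatal markers were present, with the 6 generic SPN genes summing to 85440 to 106500 normalized counts per embryo. Of these 6, Foxp1, a transcription factor of SPN, was called lower in Dlx5/6::Cre mutants (log2 fold change -0.53, edgeR adjusted p = 0.0305, against -0.33 and 0.303 in Islet1Cre) and lay below every control in both mutants. Among all genes, 1.34% were called lower in Dlx5/6::Cre mutants. Of the 6, 2 had a log2 fold change below 0 in Islet1Cre and 3 in Dlx5/6::Cre mutants. Meis2 (0.43 and 0.41) and Gad2 (0.20 and 0.15) lay above every control in both mutants without being called.

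Neurotrophins are small secreted growth factors that keep neurons alive, guide the growth of their processes and tune their synapses. The mature ligands bind Trk receptor tyrosine kinases, with BDNF acting through TrkB (encoded by Ntrk2) and neurotrophin-3 (Ntf3) mainly through TrkC (Ntrk3). All of them also bind p75NTR (Ngfr), which together with sortilin (Sort1) serves as the receptor of the uncleaved precursors. Much of the BDNF of the striatum is known to be made in cortical and midbrain neurons and delivered along their axons, while SPN express TrkB. Counts on messenger RNA in the striatum therefore report on the receptors of all cells in the dissected tissue and on local, not delivered, ligand.

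Several libraries stood apart. The libraries labelled Control replicate 3 and Islet1Cre replicate 3 held reads of both Xist, expressed from the inactive X chromosome, and the Y-linked Ddx3y. Control replicate 2 held Y-linked reads and the other 6 libraries Xist, leaving aside at most 4 stray reads of the other gene. All 3 Dlx5/6::Cre mutants were among these 6, with 0 reads of Ddx3y, so sex was partly confounded with the genotype. Its part in the differences below was not tested. In Dlx5/6::Cre replicate 1, the 5 genes of cycling progenitors summed to 11840 normalized counts, against 1972 to 3377 in the other 8, and 8 genes of cortical excitatory neurons summed to 6404. The codes of the embryos begin with IE for Controls 1 and 2 and every Islet1Cre mutant and with D for Control 3 and every Dlx5/6::Cre mutant, so the code was partly confounded with the genotype. In a fit with the code as a covariate, only the controls inform the code term. Such a fit sets Islet1Cre mutants against Controls 1 and 2 and Dlx5/6::Cre mutants against Control 3 alone. Fits without some of these libraries are given below for the tested neurotrophin genes and their sortilin relatives Sorcs1, Sorcs3 and Sorl1. Group sums, fold changes and calls of the marker lists and remaining pathway genes, Foxp1 and Slc1a2 included, rest on all libraries. Their dependence on the libraries named here was not tested.

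The levels of the 6 genes spanned a wide range, which is best read per length as RPKM, reads scaled for exon length and library size. In controls, Sort1 stood at 18.6 ± 0.431 RPKM (SD, n = 3) and Ntrk2 at 12.8 ± 1.84. Ntrk3 followed at 2.69 ± 0.309 and Ngfr at 0.716 ± 0.165. The receptors were therefore all well above both ligands, Bdnf at 0.12 ± 0.0369 RPKM and Ntf3 at 0.0104 ± 0.018. No 2 neighbours in this order overlapped among the control embryos. In the mutants, Bdnf and Ntf3 overlapped, with Ntf3 at 0.123 ± 0.0947 RPKM in Islet1Cre and 0.0742 ± 0.0547 in Dlx5/6::Cre mutants.

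The order of the 2 most abundant receptors depended on the length used. Over the longest protein-coding transcript instead of all exons, Ntrk2 rose to 28.2 RPKM in controls and passed Sort1 at 20.6. GENCODE lists 10 transcripts of Ntrk2, of which 7 are protein-coding and run from 466 to 821 codons, and 6 protein-coding ones among 20 of Ntrk3 with 82 to 864 codons. Both loci are known to make a full-length receptor with a kinase domain and truncated forms without it. A count per gene adds all of these together, so kinase-bearing and truncated receptor cannot be told apart here.

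**Figure D1:**
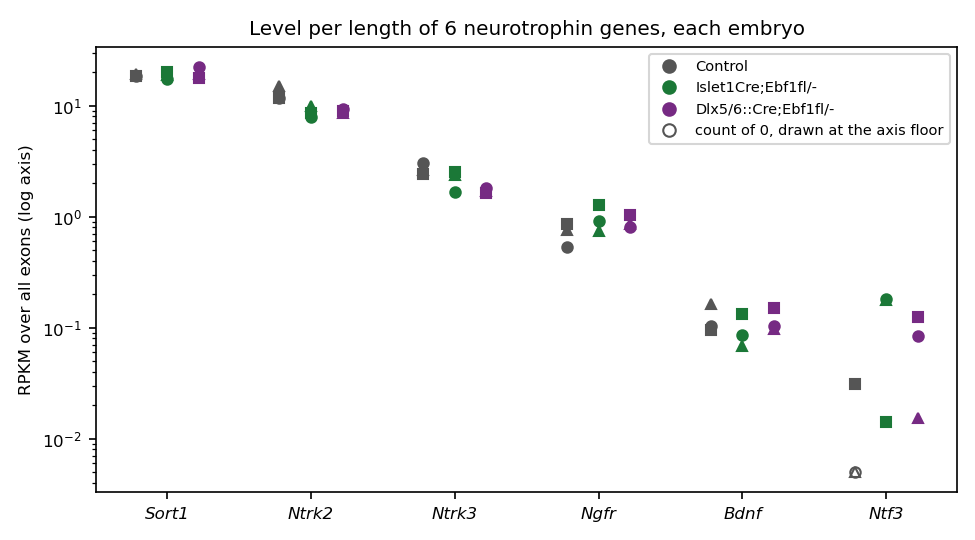
Level per length of the 6 genes in each of the 9 embryos, as RPKM over all exons on a log axis, with colours for the genotypes, shapes for the replicates and open symbols at the axis floor for a count of 0. Sort1 and Ntrk2 lie above the other 4 genes in every embryo, and Bdnf and Ntf3 lie lowest.

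Between genotypes, the 2 Trk receptors were the only members that passed the test in any comparison, and both were lower. These results depended on the fit, as given below. Neither receptor passed without the 2 libraries with mixed Xist and Y-linked reads. Ntrk2 passed the test in both mutants and Ntrk3 in the Dlx5/6::Cre mutants, while Ngfr, Sort1 and Bdnf did not pass in any comparison. Of the 5 members that passed the filter on low counts, 1 was thus called in Islet1Cre and 2 in Dlx5/6::Cre mutants, all lower. The sixth, Ntf3, was too low to be tested. Called means a Benjamini-Hochberg adjusted p below 0.05 in edgeR's quasi-likelihood test over 16368 genes. Among all genes tested, 0.971% were called in Islet1Cre (0.501% lower) and 2.39% in Dlx5/6::Cre mutants (1.34% lower). The median log2 fold change of the 5 members was -0.29 and -0.022, against -0.0016 and 0.011 over all genes, with 4 and 3 of the 5 below 0. Both mutants were compared with the same 3 controls, so a high or low control moves both comparisons. How many of all genes lay above or below every control was not counted, so such separation is only described here.

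Ntrk2, ENSMUSG00000055254, is a protein-coding gene on chr13:58806569-59133970 (GRCm38, plus strand). Control embryos had 6734, 6863 and 8769 normalized counts of Ntrk2, that is counts divided by the library's DESeq2 size factor. The Islet1Cre mutants had 4700, 4855 and 5604, and the Dlx5/6::Cre mutants 5459, 5190 and 5084. Every mutant embryo lay below every control, and the highest control was replicate 3, a library with both Xist and Y-linked reads.

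The mean of Ntrk2 went from 7455 ± 1140 in controls to 5053 ± 483 in Islet1Cre and 5244 ± 193 in Dlx5/6::Cre mutants. The log2 fold change was -0.56 (SE 0.111, 95% interval -0.81 to -0.32, edgeR adjusted p = 0.0427) in Islet1Cre and -0.51 (SE 0.110, 95% interval -0.75 to -0.26, edgeR adjusted p = 0.0392) in Dlx5/6::Cre mutants. On the linear scale Ntrk2 fell by 32.4% in Islet1Cre and fell by 29.7% in Dlx5/6::Cre mutants. Without the 2 libraries with mixed Xist and Y-linked reads, the log2 fold change was -0.51 and -0.38 and neither passed (edgeR adjusted p = 0.0955 and 0.124). Without Control replicate 3 it was -0.43 and -0.38 (edgeR adjusted p = 0.131 and 0.114). Leaving out any 1 embryo kept it below 0, but the adjusted p stayed below 0.05 only without Dlx5/6::Cre replicate 1 for Islet1Cre mutants (1 of 9 fits, edgeR adjusted p = 0.0211 to 0.222) and only without Dlx5/6::Cre replicate 1 or Islet1Cre replicate 3 for Dlx5/6::Cre mutants (2 of 9 fits, 0.034 to 0.121). Over every alternative run, DESeq2 included, the adjusted p ran from 0.000434 to 0.222 and from 0.00135 to 0.124.

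Within the embryo codes the direction of Ntrk2 was the same. Among IE embryos alone, 2 controls and 3 Islet1Cre mutants, the log2 fold change was -0.43 (edgeR adjusted p = 0.13). Among D embryos, the single control stood at 8769 and the 3 Dlx5/6::Cre mutants between 5084 and 5459. With the code as a covariate the values were -0.43 (edgeR adjusted p = 0.132) and -0.74. This fit repeats the same comparisons within the codes, so it is no further check. The value of -0.74 rests on the single D control, which was also the highest.

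TrkB is known to be made by astrocytes as well as by neurons. The 8 astrocyte and radial glia markers summed to 17920 to 20820 normalized counts in controls, 15840 to 20960 in Islet1Cre and 18420 to 31610 in Dlx5/6::Cre mutants, with none of the 8 at 0 in all embryos of a genotype. In Dlx5/6::Cre mutants 1 of the 7 tested was called (2.39% of all genes were), Slc1a2, the main astrocytic glutamate transporter, at a log2 fold change of 0.48 (edgeR adjusted p = 0.0356). At that share 1 call among 7 genes is no result about the list. Of those 7, 5 had a log2 fold change below 0 in Islet1Cre and 1 in Dlx5/6::Cre mutants, and their part in the level of Ntrk2 was not tested. Leaving out Ebf1 itself, the other 5 dSPN markers summed to 13600 to 19380 in controls, 15460 to 17300 in Islet1Cre and 10760 to 13670 in Dlx5/6::Cre mutants. None was at 0 and none was called, where 0.971% and 2.39% of all genes were. Of the 5 markers, 4 had a log2 fold change below 0 in Dlx5/6::Cre mutants, with a median of -0.40. Tac1, the gene of substance P, had -1.12, Pdyn, that of prodynorphin, -0.77, and Isl1 -0.40, each with all embryos below every control (edgeR adjusted p = 0.0776, 0.232 and 0.0817). In Islet1Cre mutants 3 of the 5 were below 0, with a median of -0.0036. Drd1, the gene of the D1 dopamine receptor, was higher in both mutants without being called. Its log2 fold change was 0.67 in Islet1Cre, with all embryos above every control, and 0.53 in Dlx5/6::Cre mutants (edgeR adjusted p = 0.346 and 0.293). The 6 iSPN markers summed to 15140 to 17260 in controls, 15850 to 18380 in Islet1Cre and 16750 to 19890 in Dlx5/6::Cre mutants. Of these 6, 0 were called in either mutant, beside the same shares of all genes. A log2 fold change below 0 was found for 1 of them in Islet1Cre and 0 in Dlx5/6::Cre mutants, with medians of 0.074 and 0.20. The part of these SPN genes and of Foxp1 in the lower Ntrk2 and Ntrk3 was not tested. In tissue of mixed cells, fewer cells of a type and less RNA per cell cannot be told apart.

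Because Ebf1 is a DNA-binding protein, the 250 bases before each annotated start (RefSeq, GRCm38.p6) were searched for the letters CCCNNGGG, the core that EBF factors are known to prefer, which is its own reverse complement and so the same on both strands. It occurred in 11.8% of 32851 such windows of all genes. It was not in the window of Ntrk2, of Ngfr, of 7 starts of Bdnf or of 2 of Ntf3, nor in the single windows of Sorcs1 and Sorcs3, and Ntrk3 and Sort1 were not among the windows searched. Of 2 starts of Sorl1, 1 held it, at position -87 counted from the start. The windows of Ntrk2 (chr13:58806319-58806568, plus strand, 62.8% G and C) and of that start of Sorl1 (chr9:42124298-42124547, minus strand, 69.6% G and C) are shown because the first gene was lower and the second higher in the mutants, with the core in capitals.
Ntrk2: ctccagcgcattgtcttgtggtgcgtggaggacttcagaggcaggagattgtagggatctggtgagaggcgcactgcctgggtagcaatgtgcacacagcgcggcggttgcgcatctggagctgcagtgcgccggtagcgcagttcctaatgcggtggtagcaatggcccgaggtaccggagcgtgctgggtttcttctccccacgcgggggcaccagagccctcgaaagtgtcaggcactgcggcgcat
Sorl1: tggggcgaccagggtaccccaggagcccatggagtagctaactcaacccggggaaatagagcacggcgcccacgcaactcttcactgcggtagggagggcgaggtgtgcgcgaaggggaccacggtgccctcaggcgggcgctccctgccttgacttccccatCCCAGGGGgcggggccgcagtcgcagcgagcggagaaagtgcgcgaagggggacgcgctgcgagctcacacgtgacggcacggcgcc
A match is a run of letters and not a binding site, and its absence says only that these letters are not in this window.

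Ntrk3, ENSMUSG00000059146, lies on chr7:78175959-78738012 (GRCm38, minus strand) and encodes TrkC. Normalized counts of 2699, 2231 and 2413 were found in control embryos, 1555, 2219 and 2099 in Islet1Cre and 1646, 1471 and 1575 in Dlx5/6::Cre mutants. All Dlx5/6::Cre mutants lay well below the lowest control. The Islet1Cre mutants were spread, with replicate 1 among the Dlx5/6::Cre values and replicate 2 just under the lowest control.

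The mean of Ntrk3 was 2448 ± 236 in controls, 1958 ± 354 in Islet1Cre and 1564 ± 88.3 in Dlx5/6::Cre mutants. The fall in Dlx5/6::Cre mutants passed (log2 fold change -0.65, SE 0.127, 95% interval -0.93 to -0.37, edgeR adjusted p = 0.0268). On the linear scale it fell by 36.1%. In Islet1Cre mutants the value was -0.32 (SE 0.127, 95% interval -0.60 to -0.042, edgeR adjusted p = 0.491). The direct comparison of the mutants gave -0.32 (95% interval -0.61 to -0.041, edgeR adjusted p = 0.868), so the values do not show that the mutants differed. Without the 2 libraries with mixed Xist and Y-linked reads the Dlx5/6::Cre value was -0.66 (edgeR adjusted p = 0.14). With the embryo code as a covariate it was -0.63 (edgeR adjusted p = 0.326), and without Dlx5/6::Cre replicate 1 it was -0.69 (edgeR adjusted p = 0.0219). The adjusted p stayed below 0.05 in 5 of the 9 fits without 1 embryo and was lost without Control replicates 1 or 3 or Dlx5/6::Cre replicates 2 or 3 (edgeR adjusted p = 0.112, 0.0859, 0.0922 and 0.0863). Over every alternative run it ranged from 0.000247 by DESeq2 to 0.326.

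**Figure D2:**
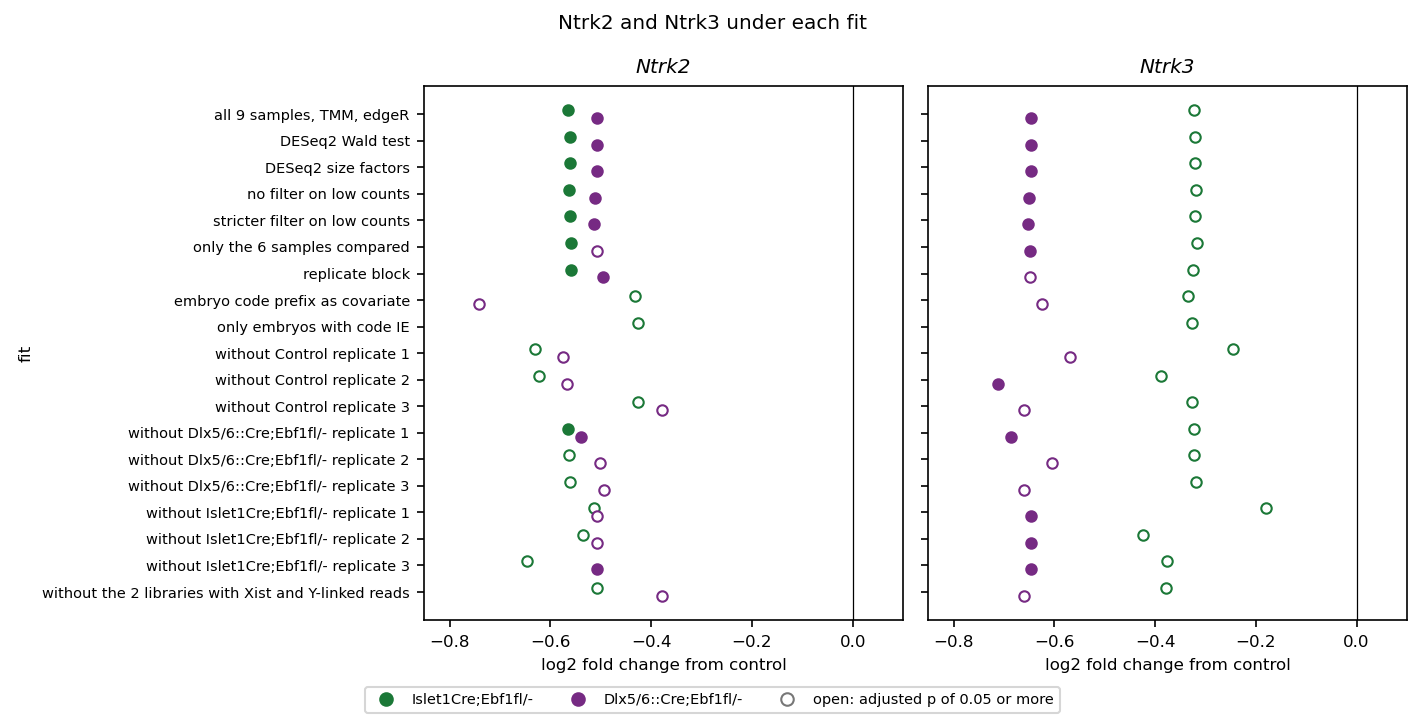
Log2 fold change from control of Ntrk2 and Ntrk3 in each mutant under each fit, filled where the adjusted p was below 0.05. All values lie below 0, whereas the points change between filled and open from fit to fit, most of all for Ntrk2.

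**Figure D3:**
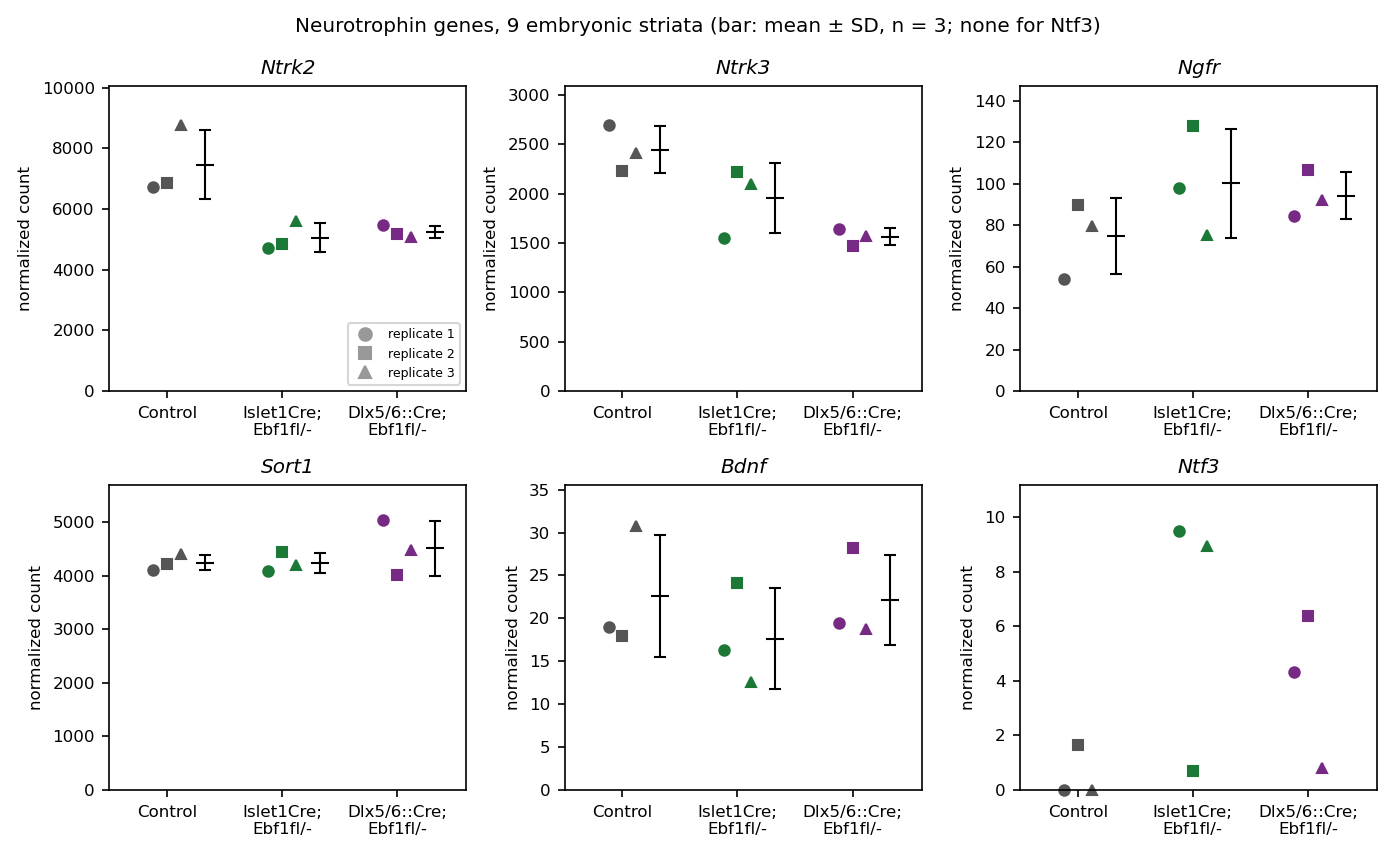
Normalized counts of the 6 genes in each of the 9 embryos, with axes from 0, shapes for the replicates and a bar for the mean ± SD (n = 3, none for Ntf3). Ntrk2 is lower in all 6 mutants than in all controls and Ntrk3 is lowest as a group in the Dlx5/6::Cre mutants, whereas the values of Ngfr, Sort1 and Bdnf overlap between genotypes.

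Ngfr, ENSMUSG00000000120, the gene of p75NTR, lies on chr11:95568818-95587735 (GRCm38, minus strand). It was lowly expressed, with 54.27, 89.83 and 79.84 normalized counts in control embryos, 97.86, 127.7 and 75.17 in Islet1Cre and 84.19, 106.5 and 92.13 in Dlx5/6::Cre mutants. The groups overlapped in every comparison. The log2 fold change was 0.44 (95% interval -0.13 to 1.01, edgeR adjusted p = 0.83) in Islet1Cre and 0.34 (95% interval -0.23 to 0.90, edgeR adjusted p = 0.56) in Dlx5/6::Cre mutants. At this level the intervals are wide and reach from a slight decrease to about a doubling.

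Sort1, ENSMUSG00000068747, on chr3:108284082-108361511 (GRCm38, plus strand), encodes sortilin, a sorting receptor that carries neurotrophin precursors and forms the precursor receptor with p75NTR. It was abundant, with 4110, 4225 and 4401 normalized counts in control embryos, 4083, 4443 and 4201 in Islet1Cre and 5033, 4012 and 4486 in Dlx5/6::Cre mutants. The 3 ranges overlapped throughout. The log2 fold change was -0.0032 (95% interval -0.20 to 0.19, edgeR adjusted p = 0.999) in Islet1Cre and 0.087 (95% interval -0.11 to 0.28, edgeR adjusted p = 0.67) in Dlx5/6::Cre mutants. Its interval was the narrowest of the 5 tested members, so a change of the size seen for Ntrk2 lies outside it in both comparisons.

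Bdnf, ENSMUSG00000048482, on chr2:109674700-109727007 (GRCm38, plus strand), encodes the main ligand of TrkB and gave few reads. Its raw counts were 21, 22 and 32 in the controls, 12, 34 and 7 in the Islet1Cre mutants, and 18, 31 and 23 in the Dlx5/6::Cre mutants. After normalization these were 18.99, 17.97 and 30.78, then 16.31, 24.12 and 12.53, and then 19.43, 28.23 and 18.75, and the groups overlapped. The log2 fold change was -0.29 (95% interval -1.11 to 0.52, edgeR adjusted p = 0.999) in Islet1Cre and -0.022 (95% interval -0.81 to 0.76, edgeR adjusted p = 0.985) in Dlx5/6::Cre mutants. Changes inside these intervals were not detectable at this depth. An antisense gene overlaps 14.4% of its exon length, and the strand setting of the counting is not given in the sources used here, so a few of these reads may come from the other strand.

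Ntf3, ENSMUSG00000049107, on chr6:126101412-126166910 (GRCm38, minus strand), encodes neurotrophin-3, the ligand of TrkC. Its raw counts were 0, 2 and 0 in the controls, 7, 1 and 5 in the Islet1Cre mutants, and 4, 7 and 1 in the Dlx5/6::Cre mutants. Every group thus held an embryo with at most 2 reads, and the genotypes overlapped. Summed over 3 embryos, 2 reads in controls stood against 13 and 12 in the mutants, a ratio per counted read of 8.19 (95% interval 1.85 to 74.7) and 6.17 (95% interval 1.37 to 56.7). These intervals cover counting error only, not the spread between embryos. Fitted without the filter on low counts, the log2 fold change was 3.07 (edgeR adjusted p = 0.582) and 2.46 (edgeR adjusted p = 0.45), values that depend on the fit at so few reads.

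The cortical excitatory markers, whose cells are a known source of BDNF, summed to 1060 to 2590 normalized counts in controls, 1166 to 1946 in Islet1Cre and 2491 to 6404 in Dlx5/6::Cre mutants, with 0 of 8 called (0.971% and 2.39% of all genes were) and none at 0 in all embryos of a genotype. All 8 had a log2 fold change above 0 in Dlx5/6::Cre mutants, with a median of 1.01, and in Islet1Cre mutants 7 of 8 lay below 0, with a median of -0.21. Their part in the counts of Bdnf and of the receptors was not tested.

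In the direct comparison of the mutants, none of the 5 members was called, as was true of all genes (0% of 16368 by edgeR, with 844 at an unadjusted p below 0.05 and 18 called by DESeq2). For Ntrk2 the difference was 0.056 on the log2 scale (95% interval -0.19 to 0.30). For Ngfr, Sort1 and Bdnf it was -0.10, 0.090 and 0.27, each with an interval that includes 0.

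Across the 9 embryos, the log2 levels of Ntrk2 and Ntrk3 had a Pearson r of 0.695, while Ntrk2 and Bdnf had 0.336 and Ntrk2 and Sort1 0.0014. The embryos include the 3 genotypes, so these values hold the genotype differences described above. Of 12051 genes with a mean of at least 100 normalized counts, those most like Ntrk2 over the 9 embryos were Zfpm1 (0.985), Prr16 (0.976) and Nr3c1 (0.959), the last of which encodes the glucocorticoid receptor. For Ntrk3 they were Jade3 (0.974), Mri1 (0.974) and Mapk4 (0.97). For Sort1 they were Hipk2 (0.955), Enah (0.942) and Igf1r (0.937), the receptor of insulin-like growth factor. For Ngfr they were Abca8b (0.939), Gatc (0.932) and Sec23ip (0.915), and for Bdnf Itpr2 (0.934), Cnot2 (0.894) and Stx6 (0.84). These names are a description over 9 embryos, with no test, and they depended on the measure. By Spearman rho the highest were Ivns1abp and Lsm14b (0.967) for Ntrk2 and Tmem184b (0.983) for Ntrk3. For Sort1 they were Dlg5 and N4bp2l2 (0.967), whereas Abca8b (0.967) stayed first for Ngfr.

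The remaining ligands and receptors of the pathway included genes that moved the other way. Of 8 listed, 7 were tested, and 2 were called in Islet1Cre and 3 in Dlx5/6::Cre mutants, all higher and all relatives of sortilin (0.47% and 1.05% of all genes were called higher). In the direct comparison of the mutants 0 of the 7 were called.

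Sorcs3, a neuronal sorting receptor of the sortilin family, stood at 267.7, 530.0 and 433.8 normalized counts in the controls. It stood at 1596, 1627 and 1260 in the Islet1Cre mutants and at 1097, 1488 and 1688 in the Dlx5/6::Cre mutants. All 6 mutants lay above all 3 controls, and the lowest of them was Dlx5/6::Cre replicate 1. The log2 fold change was 1.86 (SE 0.231, edgeR adjusted p = 0.00745) in Islet1Cre and 1.79 (SE 0.230, edgeR adjusted p = 0.00356) in Dlx5/6::Cre mutants.

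Sorcs1, a close relative of Sorcs3, was at 685.6, 989.8 and 895.6 in the controls, 1749, 1545 and 1460 in the Islet1Cre mutants, and 1504, 1597 and 1778 in the Dlx5/6::Cre mutants. Every mutant lay above every control, with a log2 fold change of 0.88 (SE 0.131, edgeR adjusted p = 0.0154) and 0.92 (SE 0.131, edgeR adjusted p = 0.00524). Sorl1, which encodes the sorting receptor SORLA, was at 1608, 1454 and 1579 in the controls, 1930, 2630 and 1851 in the Islet1Cre mutants, and 3023, 2072 and 2848 in the Dlx5/6::Cre mutants. It also lay above every control in each mutant, but passed in Dlx5/6::Cre alone (log2 fold change 0.77, SE 0.157, edgeR adjusted p = 0.0298, against 0.47 with an adjusted p of 0.327 in Islet1Cre), and the direct comparison of the mutants gave 0.31 (95% interval -0.038 to 0.65).

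**Figure D4:**
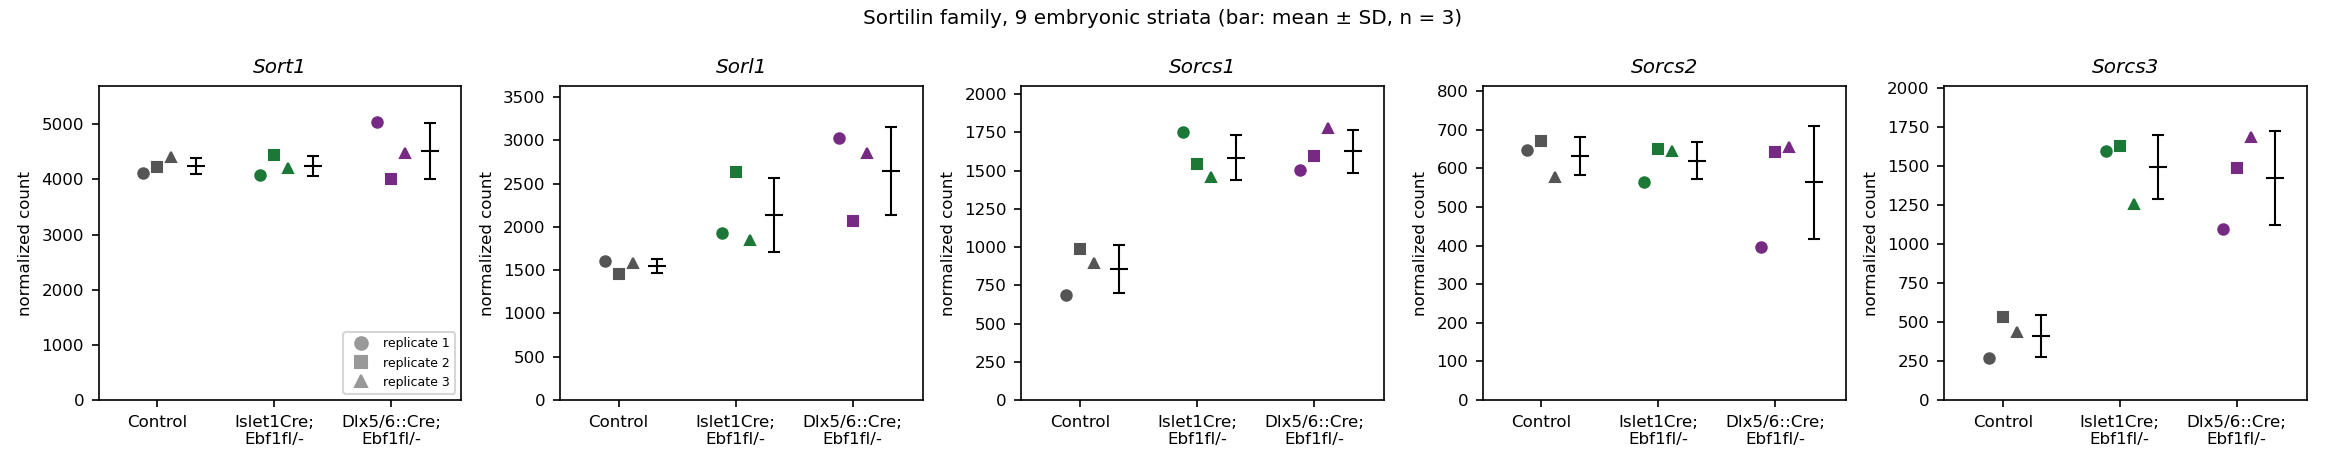
Normalized counts of the 5 genes of the sortilin family in each of the 9 embryos, with axes from 0 and a bar for the mean ± SD (n = 3). Sorcs1, Sorcs3 and Sorl1 lie above every control in all 6 mutants, whereas Sort1 and Sorcs2 overlap.

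The rise of Sorcs3 and Sorcs1 was less dependent on single embryos than the fall of the Trk receptors. In Dlx5/6::Cre mutants both passed in 9 of 9 fits without 1 embryo, and in Islet1Cre mutants in 7 of 9, the exceptions being the fits without Islet1Cre replicate 1 (edgeR adjusted p = 0.0529 for Sorcs3 and 0.0899 for Sorcs1) and without Islet1Cre replicate 2 (0.0583 and 0.0774). Without the 2 libraries with mixed Xist and Y-linked reads, Sorcs3 passed in both mutants (edgeR adjusted p = 0.0466 and 0.0269) and Sorcs1 in Dlx5/6::Cre mutants (0.0393, against 0.0789 in Islet1Cre). With the embryo code as a covariate neither passed in Dlx5/6::Cre mutants, at log2 fold changes of 1.72 and 0.86 (edgeR adjusted p = 0.132 and 0.17). Sorl1 passed in 5 of 9 fits without 1 embryo in Dlx5/6::Cre mutants, losing its call without any 1 control or without Dlx5/6::Cre replicate 3 (edgeR adjusted p = 0.101 to 0.104), and lost it with the replicate block (0.056), with the embryo code as a covariate (0.413) and without the 2 libraries with mixed reads (0.139).

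No other tested gene of that list passed. Sorcs2, the sortilin relative known to pair with p75NTR, had a log2 fold change of -0.031 and -0.16 (edgeR adjusted p = 0.999 and 0.686). Nradd, a relative of p75NTR, had 0.040 and 0.086 (edgeR adjusted p = 0.999 and 0.649).

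Ntf5, the gene of neurotrophin-4, had 3 reads in all controls, 0 in all Islet1Cre and 4 in all Dlx5/6::Cre mutants and was not tested.

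**Figure D5:**
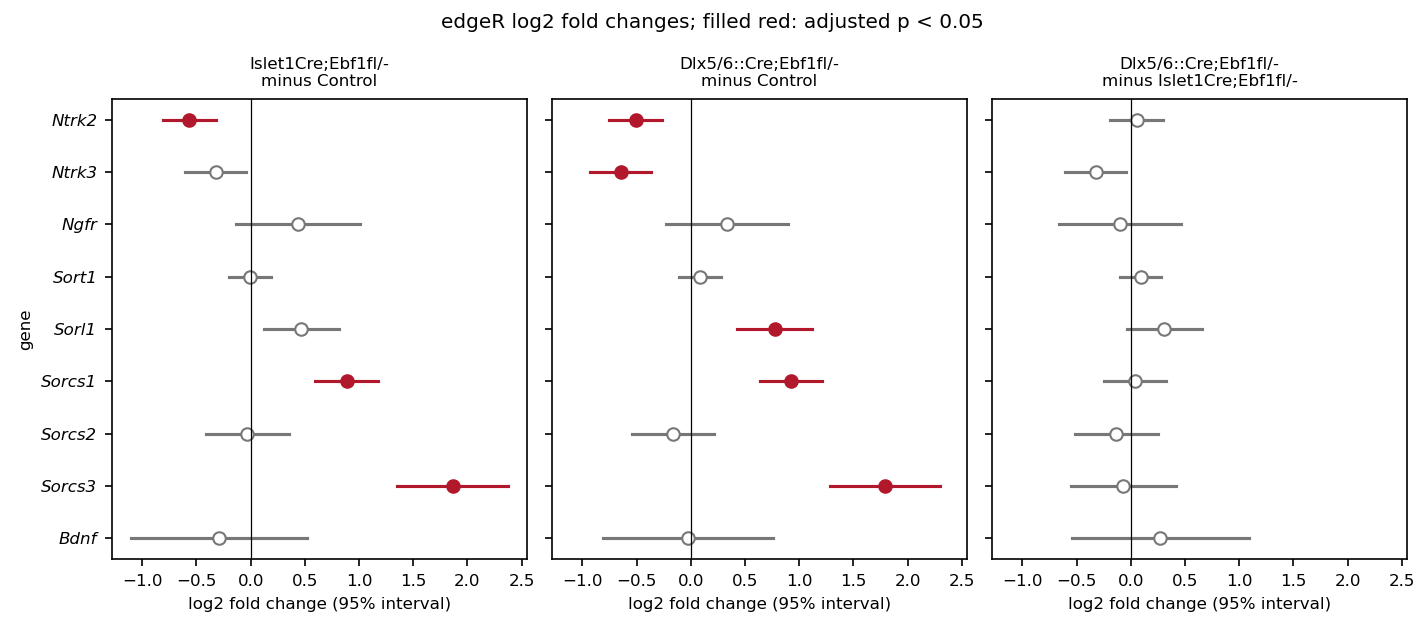
Log2 fold changes with 95% intervals of the 5 tested members and 4 further receptors of the sortilin family in the 3 comparisons, with filled red points for an edgeR adjusted p below 0.05. Ntrk2 and Ntrk3 lie left of 0 and Sorl1, Sorcs1 and Sorcs3 right of it in both mutants, and the comparison of the mutants has no filled point.

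In the intracellular part of the pathway, none of 22 Trk adaptors and effectors, 9 p75NTR partners and effectors and 9 tested genes of neurotrophin processing passed in either mutant, where 0.971% and 2.39% of all genes did. At those shares few or no calls among so few genes are no result about the lists. Their median log2 fold changes were 0.046, 0.012 and -0.0074 in Islet1Cre and 0.065, -0.0063 and -0.046 in Dlx5/6::Cre mutants. The smallest adjusted p in these lists, picked out after the values were seen, belonged in Dlx5/6::Cre mutants to Pik3r1, a regulatory subunit of phosphoinositide 3-kinase (log2 fold change 0.60, edgeR adjusted p = 0.0587). Next came Traf6, an adaptor of p75NTR (0.33, edgeR adjusted p = 0.101), Hap1, huntingtin-associated protein 1, which takes part in the transport of BDNF and TrkB (0.68, edgeR adjusted p = 0.108), and Mmp9, a protease that can cleave neurotrophin precursors (0.65, edgeR adjusted p = 0.135). Pik3r1, Traf6 and Mmp9 lay above every control in both mutants, and Hap1 in Dlx5/6::Cre mutants, while Rtn4r, Furin and Pcsk7 of the same lists lay below every control in both. The share of all genes separated in this way is not known, so these positions are no result about the lists.

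Genes known to be induced by neurotrophins and by neuronal activity did not pass either, with 0 of 14 called beside the same 0.971% and 2.39% of all genes, and medians of -0.15 and -0.11. The smallest adjusted p in Dlx5/6::Cre mutants was that of Npas4, an activity-induced transcription factor, at a log2 fold change of -0.87 (95% interval -1.46 to -0.28, edgeR adjusted p = 0.143). Individual genes of this list ranged from -0.65 to 0.63 in Islet1Cre and from -0.87 to 0.65 in Dlx5/6::Cre mutants. Among them Nr4a1 (-0.55 and -0.60), Arc (-0.46 and -0.73) and Junb (-0.36 and -0.20), named after their values were seen, lay below every control in both mutants without passing. Others rose without passing, such as Vgf (0.63 and 0.65) and Dusp4 (0.34 and 0.57). Vgf lay above every control in Islet1Cre mutants and Dusp4 in Dlx5/6::Cre mutants. In each mutant 8 of the 14 were below 0.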

How the data were processed

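Gene counts in striatal tissue of 9 embryos were analysed. The authors deposited raw counts of reads per Ensembl 81 gene, made by them with the Eoulsan pipeline: unread ends were trimmed, short and low-quality reads dropped, the rest mapped to the mouse genome with STAR 2.4.0k, reads matching more than 1 position removed and genes counted with HTSeq-count 0.5.3. At most 0.209% of the 75 bp windows of a member occurred in another gene. Groups and replicate numbers follow the sample labels.

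All 44886 genes entered edgeR 4.0.16 (R 4.3.3), where filterByExpr with a minimum count of 10 kept 16368, libraries were scaled by TMM, and the 9 samples were fitted together with 3 genotype groups by the quasi-likelihood test, with Benjamini-Hochberg adjustment over all genes. The SE is the log2 fold change over the square root of F. Normalized counts use size factors of DESeq2 1.42.0. With 3 embryos a group, an exact permutation test of 1 gene cannot go below p = 0.1. Depth was 16.5 to 41.5 M counts, so genes with few reads are least precise. Embryos are separate animals.

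The members, gene lists, tests and naming rule were chosen with earlier results of these data known. Named were all members, genes of 5 pathway lists that passed in any comparison, Ntf5, and the 3 genes with the highest Pearson r (log2 CPM, prior count 2) to each member. Further genes of the pathway and marker lists were named after their values were seen. Of the pathway lists, Ngfrap1 is the older name of Bex3, which was counted once. Values of some genes of these lists are not reported here. Counts were simulated for 16181 genes, of which 195 were given known changes. In the simulated Dlx5/6::Cre comparison, 24.2% of genes changed 1.4-fold or to 0.7, and 67.7% of those changed 2-fold or to 0.5, were recovered. Of the genes called there, 5.65% had not been changed. Alternatives were another scaling, test or filter, fewer samples, a replicate or embryo code term and each embryo left out.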

Additional observations from a re-analysis of the deposited data

How the results depend on the processing

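The number of members called changed with the processing. In Islet1Cre mutants it went from 1 to 0 with the embryo code as a covariate, among IE embryos only and without the 2 libraries with Xist and Y-linked reads (an alternative chosen after seeing the data), and ranged from 0 to 1 without single embryos. In Dlx5/6::Cre mutants it went from 2 to 1 with only the 6 samples compared and with a replicate block, to 0 with the code as a covariate and without those 2 libraries, and ranged from 0 to 2 without single embryos. In these counts, Ntrk2 and Ntrk3 lost their call while staying below 0. With the replicate block Ntrk3 had an adjusted p of 0.0501 in Dlx5/6::Cre mutants. The replicate numbers do not pair the embryos, since deviations of same-numbered embryos had a mean r of -0.023 against 0.012 for others. DESeq2's test, its size factors, no filter and a stricter filter kept the same number of members called. Over all genes, calls ranged from 15 to 397 in Islet1Cre, from 32 to 860 in Dlx5/6::Cre and from 0 to 18 between mutants. The cause of these shifts was not tested.

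Signs turned in uncalled values, some of them not near 0. Sort1 in Islet1Cre mutants gave 0.00021 without a filter, 0.0030 with 6 samples, 0.023 with the code, 0.029 in IE embryos, 0.035 without the 2 libraries and -0.037 to 0.029 without single embryos, and in Dlx5/6::Cre mutants -0.00060 to 0.16. Bdnf in Islet1Cre mutants gave 0.0033 in IE embryos and 0.16 without the 2 libraries. In Dlx5/6::Cre mutants Bdnf gave 0.26 without the 2 libraries and -0.24 to 0.26 without single embryos. Between mutants, the code as a covariate gave -0.31 for Ntrk2 and -0.46 for Bdnf, and leaving out embryos gave -0.26 to 0.12 for Ngfr. Depth limits Bdnf and Ntf3, and 24.2% recovery of simulated 1.4-fold or 0.7-fold changes limits the rest.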
